A study of Mus musculus with 15 samples.

Results

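The 8 mouse genes described here, Piezo1, Piezo2, Trpv4, Trpc1, Trpm7, Pkd1, Pkd2 and Kcnk2, encode ion channels or channel partners linked to the sensing of stretch, flow and osmotic swelling. They were taken by name, for what their proteins are known to do, but with earlier results of these data known. They are 8 of the 23420 genes counted. Expression was measured by RNA sequencing of whole lungs from wildtype CD1 embryos (CD1 is an outbred strain) in 5 groups of 3 libraries. Lungs dissected at E12.5 (days of gestation) were kept in culture for 48 h at high or at low transmural pressure (lumen relative to outside), and fresh lungs were taken on the same day of gestation and at E13.5 and E14.5. Each library pooled 3 lungs in the high pressure, E13.5 and E14.5 groups and 6 lungs in the low pressure and E12.5 groups, so pool size is tied to both comparisons. Nothing in the labels ties the libraries of a group to different litters or cultures. The p-values therefore cover the variation among these pools alone, which may be technical.

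Mechanosensitive channels turn force on a membrane into an ion current, most often an entry of calcium. Piezo1 and Piezo2 form large trimeric cation channels opened directly by membrane tension. Piezo1 is known from endothelium, red cells and many other non-neuronal cells, and Piezo2 from touch and stretch receptors, including the vagal neurons that sense lung inflation. The TRP channels Trpv4, Trpc1 and Trpm7 respond to several stimuli, the polycystins Pkd1 and Pkd2 form a complex at the primary cilium and elsewhere, and Kcnk2 (TREK-1) is a potassium channel that stretch opens. In the embryonic lung, fluid secreted into the closed airways holds the lumen under pressure, and peristaltic contraction of airway smooth muscle stretches the wall in rhythm.

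The promoters of 4 members are printed for their results in the test of high against low pressure. Trpv4 was called higher at high pressure, Trpm7 and Pkd2 were called lower, and Piezo1 did not pass the test. These calls did not hold in every fit described below, and responses were not tested between genes. The sequences come from RefSeq on GRCm38.p6 and run from 250 bases before to 50 bases after the start site, 5′ to 3′ on the strand of the gene. In genome coordinates they lie at chr5:114658372-114658671 (minus strand, Trpv4), chr2:126876212-126876511 (minus strand, Trpm7), chr5:104459207-104459506 (plus strand, Pkd2) and chr8:122551280-122551579 (minus strand, Piezo1). Capitals mark the E-box CACGTG, the TATA box TATAAA and the core GGAATG bound by TEAD factors, searched on both strands.
Trpv4: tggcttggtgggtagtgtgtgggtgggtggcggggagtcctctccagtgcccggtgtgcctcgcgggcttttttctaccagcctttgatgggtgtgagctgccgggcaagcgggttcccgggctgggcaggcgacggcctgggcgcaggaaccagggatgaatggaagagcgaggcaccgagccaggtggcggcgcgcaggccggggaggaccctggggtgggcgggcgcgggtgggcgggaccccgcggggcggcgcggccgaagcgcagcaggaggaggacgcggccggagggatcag
Trpm7: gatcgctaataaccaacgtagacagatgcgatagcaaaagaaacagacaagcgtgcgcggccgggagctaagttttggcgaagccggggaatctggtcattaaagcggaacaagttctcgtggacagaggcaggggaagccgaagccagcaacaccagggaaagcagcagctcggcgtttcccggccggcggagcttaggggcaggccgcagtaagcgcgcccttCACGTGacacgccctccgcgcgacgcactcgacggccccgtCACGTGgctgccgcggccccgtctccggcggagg
Pkd2: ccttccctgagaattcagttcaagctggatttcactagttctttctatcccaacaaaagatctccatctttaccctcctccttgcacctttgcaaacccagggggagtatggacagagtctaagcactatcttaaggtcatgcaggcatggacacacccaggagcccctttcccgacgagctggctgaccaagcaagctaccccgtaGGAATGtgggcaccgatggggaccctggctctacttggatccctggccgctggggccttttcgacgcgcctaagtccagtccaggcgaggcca
Piezo1: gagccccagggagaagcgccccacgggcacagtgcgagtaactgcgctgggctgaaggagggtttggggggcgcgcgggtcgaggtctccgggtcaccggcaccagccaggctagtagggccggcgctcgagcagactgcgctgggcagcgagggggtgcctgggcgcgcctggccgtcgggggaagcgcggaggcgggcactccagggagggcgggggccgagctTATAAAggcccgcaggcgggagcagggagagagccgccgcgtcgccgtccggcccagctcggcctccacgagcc
The Trpm7 window held 2 E-boxes, at -25 and 17 from the start site, a motif present in 7.15% of 32851 promoter windows. The Pkd2 window held 1 GGAATG core at -43 (14.7% of windows), and the Piezo1 window 1 TATAAA at -24 (13.6% of windows). The Trpv4 window held none of these and 3 copies of the GC box GGGCGG, which 35.7% of windows hold. The Piezo1 window also held 1 GC box, at -40. CpG dinucleotides numbered 35 for Trpm7, 34 for Piezo1, 30 for Trpv4 and 9 for Pkd2, against a median of 7 over all windows. Windows were used for 7 of the 8 members. Piezo2 was left out of this search, so nothing is said here of its promoter.

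Total counts were 40167255 to 44341263 in high pressure libraries, 31843739 to 38288861 in low pressure libraries and 18837343 to 21955244 in fresh lungs. All 6 epithelial and all 6 mesenchymal lung markers had counts in every library. Low pressure replicate 3 stood apart, with 14637 genes detected against 16509 to 16726 in the other cultured libraries. In fresh lungs replicate 1 of every stage stood apart: 77 ribosomal protein genes took 3.57% to 4.34% of its counts, against 1.75% to 2.22% in replicates 2 and 3. Expression is given as CPM, a gene's count relative to the TMM-scaled total of its library, within each table, which for the members differed by at most 2.01% from a joint scaling of all libraries. Replicate 1 of the fresh lungs also differed in marker sums at every stage. Epithelial markers summed to 540 to 776 CPM in it, against 299 to 417 CPM in replicates 2 and 3. Mesenchymal markers summed to 2895 to 3658 CPM, against 1830 to 2683 CPM. All libraries are bulk samples, in which fewer cells of a type and less RNA per cell cannot be told apart.

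At high pressure Piezo2 fell, with 46.0 ± 2.38 CPM at high and 120.7 ± 15.1 CPM at low pressure (SD, n = 3 each), the largest of the 8 responses relative to its error, while its paralog Piezo1 did not pass the test. Trpv4 rose, and Trpm7 and Pkd2 fell. Trpc1, Pkd1 and Kcnk2 did not pass the test. These 4 of 8 members called (adjusted p under 0.05, edgeR quasi-likelihood test with Benjamini-Hochberg adjustment over 14937 genes) stand against 26.1% of all genes tested, of which 14% rose and 12.2% fell. The median log2 fold change was -0.23 over the members and 0.01 over all genes. With the replicate number as a block 3 members were called, against 21% of all genes, though the numbers did not pair the cultured libraries. The share of counts taken by the 77 ribosomal protein genes also separated the pressures, at 3.05% to 3.35% at high and 1.92% to 2.19% at low pressure. In fresh lungs the library with the larger share at each stage, replicate 1, was also the one with the least Trpm7, Piezo2, Pkd2 and Trpc1. It had the most Kcnk2 at each stage, while Piezo1, Pkd1 and Trpv4 were neither lowest nor highest in it throughout. The part of this share in the member results was not tested.

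**Figure D1:**
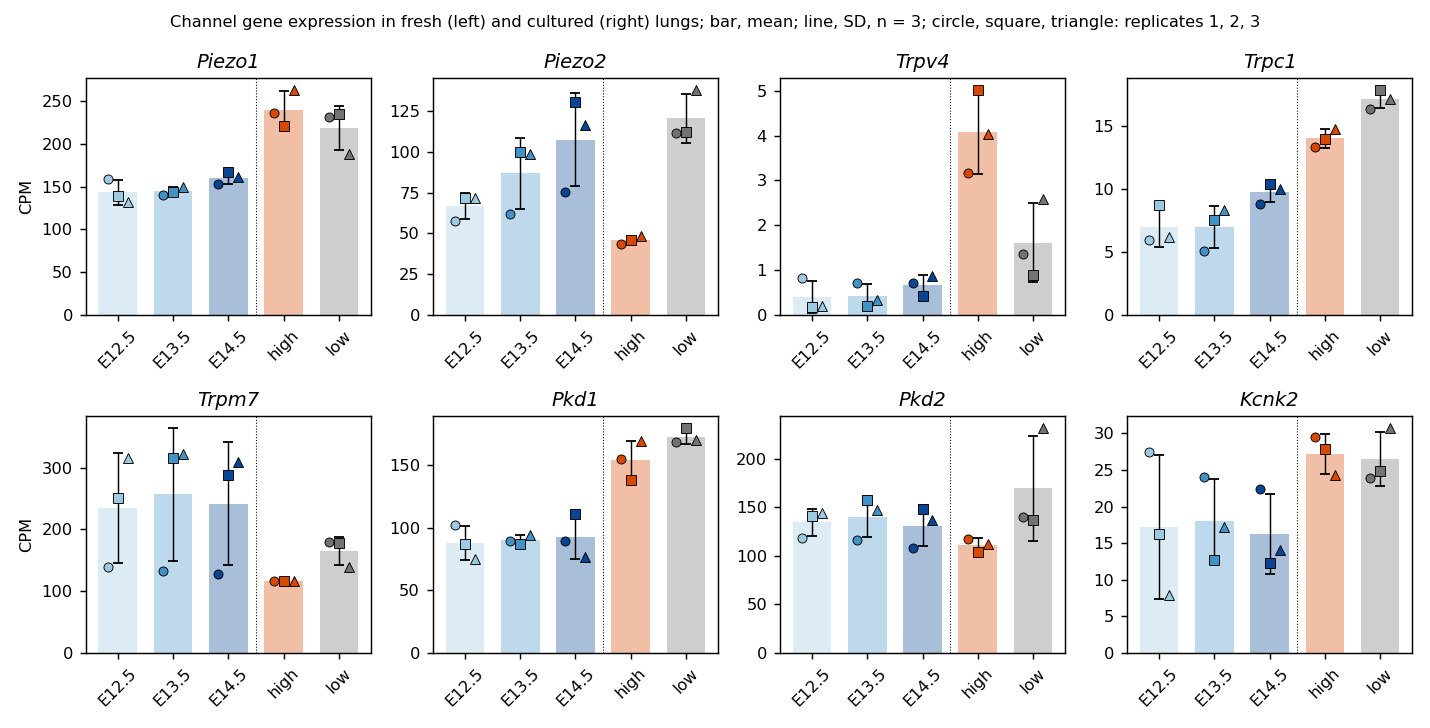
CPM of the 8 genes in each library, by group (fresh lungs at 3 stages, then cultures at high and at low pressure); bars are means, lines the SD of 3 libraries and symbols the replicates. Piezo2 lay at 43.8 to 48.5 CPM at high pressure and 111.8 to 138 CPM at low pressure, and replicate 1 (circles) was the lowest Trpm7 library at every stage.

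Piezo2, on chromosome 18 (63010213 to 63387183, minus strand), was measured at 43.8, 45.8 and 48.5 CPM in the 3 high pressure libraries and at 112, 112 and 138 CPM in the 3 low pressure libraries. Every high pressure library lay below every low pressure library. Its log2 fold change was -1.39 (SE 0.11, adjusted p = 0.000393), and it stayed between -1.44 and -1.28 whichever of the 6 libraries was left out. The level at high pressure was also below that of all 9 fresh lung libraries, which ran from 57.6 CPM to 130.5 CPM. Markers of neurons and glia, the cells best known for Piezo2, summed to 25.5 to 35.2 CPM at high pressure and 31.1 to 39.6 CPM at low pressure, with overlapping ranges. Endothelial markers summed to 91.0 to 213 CPM at high and 208 to 328 CPM at low pressure, overlapping by 1 library. The sums of 4 other sets did not overlap. Those of epithelium (1121 to 1217 CPM at high, 479.5 to 560.3 CPM at low pressure), mesenchyme (5745 to 7075 and 3539 to 4382 CPM) and mesothelium (392 to 515 and 284 to 303 CPM) were higher at high pressure, and that of 3 red cell markers was lower (5.85 to 6.93 and 8.46 to 14.0 CPM). The mesenchymal sum was carried by the collagen genes Col1a1 (mean 2524 CPM at high and 1099 CPM at low pressure) and Col1a2 (3200.5 and 1643 CPM). Tbx4 (131 and 98.1 CPM) and Tcf21 (84.2 and 60.9 CPM) of the same set also had higher means at high pressure. Pdgfra (529 and 673 CPM) and Foxf1 (148 and 348 CPM) had lower means there. These single markers were named after their values were seen. The part of any of these cell types in the member results was not tested.

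Piezo1, on chromosome 8 (122481698 to 122551329, minus strand), had 236, 220.4 and 263 CPM at high pressure and 232, 235 and 188 CPM at low pressure. The groups overlapped, and the difference on the log2 scale was 0.13 (SE 0.12, adjusted p = 0.425). Its exons share 2441 bases with Ctu2 on the other strand, and whether the counting used strand is not known here. Some of these counts may therefore belong to Ctu2.

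Set against each other within each library, the paralogs had 0.186, 0.208 and 0.184 Piezo2 counts per Piezo1 count at high pressure, and 0.482, 0.477 and 0.734 at low pressure. The highest low pressure value came from replicate 3, the library with few genes detected. The ratio averaged 0.193 ± 0.013 at high and 0.564 ± 0.147 at low pressure (SD, n = 3 each), a log2 difference of -1.52, which ran from -1.63 to -1.32 when 1 library was left out. An exact two-sided permutation test gave p = 0.1, the smallest that 3 libraries against 3 allow.

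**Figure D2:**
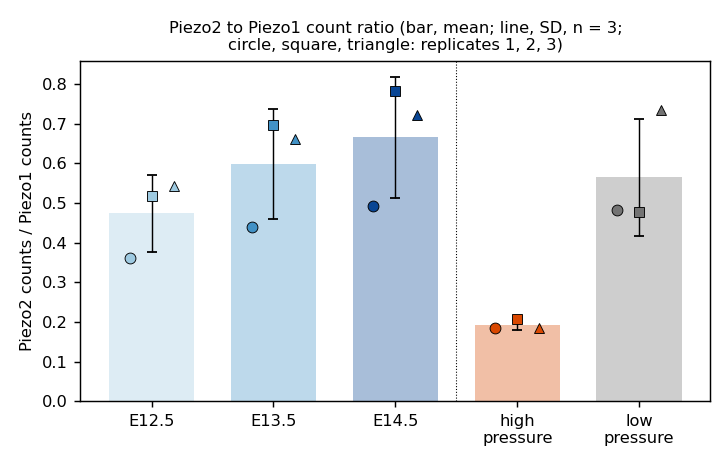
Piezo2 counts divided by Piezo1 counts in each library, by group; bars are means, lines the SD of 3 libraries and symbols the replicates. The 3 high pressure libraries lay at 0.184 to 0.208, below all 12 others, of which the lowest was 0.362.

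Trpv4, a calcium channel opened by swelling, warmth and lipid messengers, was the member that rose. It lies on chromosome 5 (114622152 to 114658421, minus strand) and had 3.16, 5.03 and 4.04 CPM at high pressure (518 counts in all), against 1.37, 0.885 and 2.59 CPM at low pressure (159 counts). The groups did not overlap, and the log2 fold change was 1.34 (SE 0.42, adjusted p = 0.0476). The call sat at the threshold: it was lost with the replicate block (1.43, adjusted p = 0.0544) and without any 1 of the libraries other than low pressure replicate 3, with 1.05 to 1.5 in those 5 fits.

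Trpm7, a cation channel fused to a protein kinase and known for magnesium and zinc entry, lies on chromosome 2 (126791565 to 126876230, minus strand). Its 3 high pressure libraries agreed closely at 117, 116 and 116 CPM, against 180, 177 and 139 CPM at low pressure, where replicate 3 was again the odd one. The groups did not overlap, and Trpm7 had a log2 fold change of -0.51 with an SE of 0.11 (adjusted p = 0.012). The adjusted p was 0.0559 without high pressure replicate 2 and 0.0547 without high pressure replicate 3, with the fold change at -0.51 in both.

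Trpc1, a canonical TRP subunit whose direct gating by stretch is disputed, lies on chromosome 9 (95705082 to 95750375, minus strand). It had 13.3, 14.0 and 14.8 CPM at high pressure and 16.4, 17.9 and 17.2 CPM at low pressure. The groups did not overlap, but the log2 fold change of -0.29 (SE 0.13) did not pass the test (adjusted p = 0.123).

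Pkd2 (polycystin-2, the channel subunit) lies on chromosome 5 (104459450 to 104505819, plus strand) and had 117, 103 and 113 CPM at high pressure, against 140, 137 and 232 CPM at low pressure. All high pressure libraries were below all low pressure libraries, but low pressure replicate 3 alone made up much of the gap. Its log2 fold change was -0.61 with an SE of 0.19 (adjusted p = 0.049), and without that library it was -0.32 and still called. It was not called when any 1 of the high pressure libraries was left out (adjusted p 0.112 to 0.166, log2 fold change -0.65 to -0.56).

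Pkd1 (polycystin-1, the large receptor-like partner) lies on chromosome 17 (24549834 to 24596508, plus strand) and had 155, 138 and 169 CPM at high pressure and 168, 180 and 170 CPM at low pressure. The groups overlapped, and the difference on the log2 scale was -0.17 (SE 0.10, adjusted p = 0.238). Its exons share 693 bases with Tsc2 on the other strand. Kcnk2, on chromosome 1 (189207930 to 189402273, minus strand), had 29.5, 27.8 and 24.3 CPM at high pressure and 23.9, 24.9 and 30.8 CPM at low pressure. These values overlapped fully, with 0.04 between them on the log2 scale (SE 0.14, adjusted p = 0.871), and 604 exon bases are shared with an antisense transcript.

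**Figure D3:**
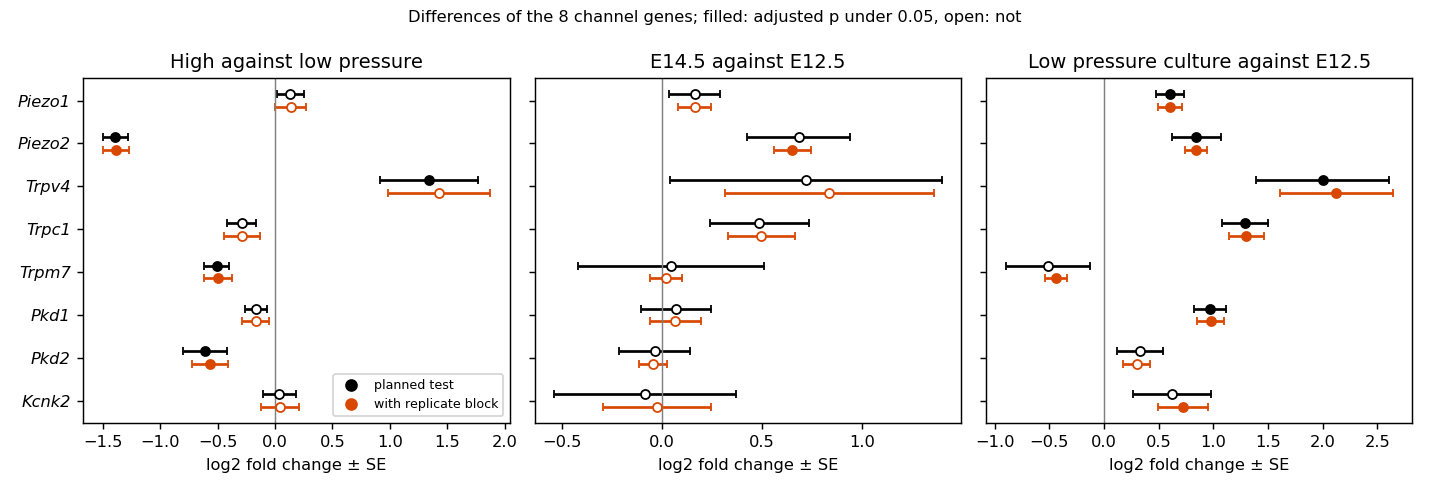
Log2 fold change ± SE of each gene in 3 comparisons, from the planned test and from the fit with the replicate number as a block; filled points have an adjusted p under 0.05. Piezo2 was -1.39 between the pressures and 0.68 between E14.5 and E12.5.

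Base composition differed widely among the members, and several fold changes moved when it was fitted together with transcript length. Its own part in the fold changes was not tested. Exon GC content was 40.1% for Trpm7, 45.2% for Trpc1, 49.0% for Pkd2, 49.96% for Piezo2, 51.2% for Kcnk2, 56.8% for Pkd1, 59.0% for Trpv4 and 59.1% for Piezo1, where the 5th and the 95th percentile of tested genes were 39.7% and 59.7%. When each library's trend on GC content and transcript length was taken into the fit as an offset, Piezo2 alone was still called for high against low pressure (-1.17, SE 0.11, adjusted p = 0.000736), where 19.9% of all genes were. Trpm7 shrank most, to -0.18 (adjusted p = 0.2). Pkd2 (-0.54, adjusted p = 0.0867) and Trpv4 (1.1, adjusted p = 0.103) kept most of their size without passing. With all 15 libraries in one fit, which takes the spread of the fresh lungs into the error, Piezo2 (adjusted p = 0.00456) was again the one member called, against 7.5% of all genes.

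**Figure D4:**
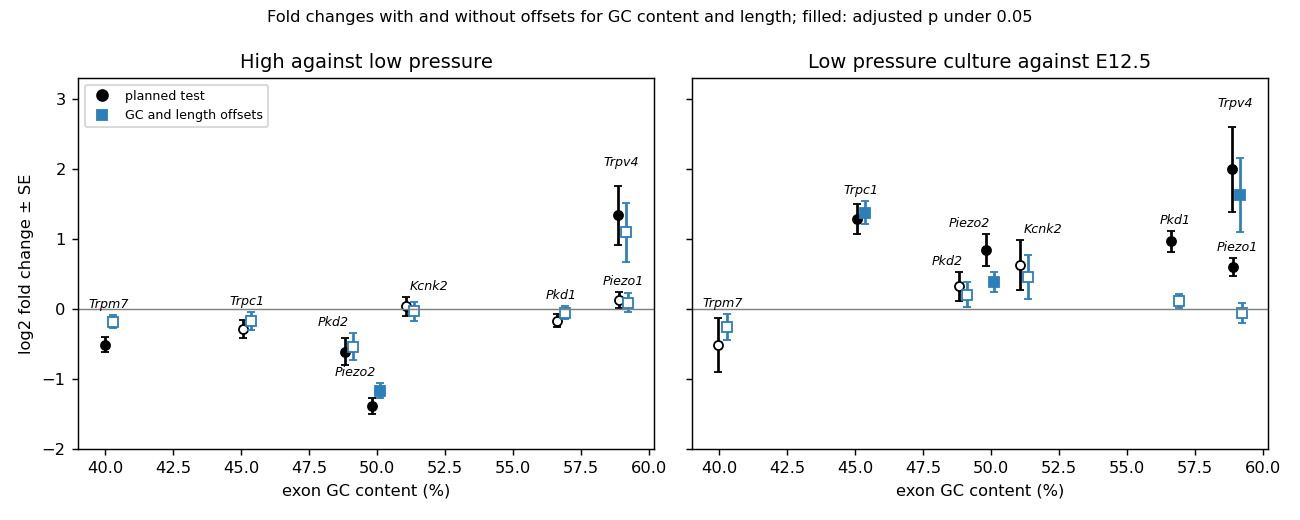
Log2 fold change ± SE against exon GC content, from the planned test and with offsets for GC content and length, for 2 comparisons; filled points have an adjusted p under 0.05. With the offsets Trpm7 was at -0.18 in place of -0.51 between the pressures, and Piezo1 at -0.06 in place of 0.60 between low pressure culture and E12.5.

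In fresh lungs Piezo2 was the member with the clearest course, higher at each later stage within every replicate number. It had 57.6, 71.7 and 71.5 CPM at E12.5, 61.7, 99.99 and 98.9 CPM at E13.5 and 75.4, 130.5 and 116 CPM at E14.5, in the order of replicates 1 to 3. Replicate 1 was the lowest at each stage, and no E14.5 library fell below an E12.5 library. The planned test did not call it (log2 fold change 0.68, SE 0.26, adjusted p = 0.423 for E14.5 against E12.5), and called 0% of 14242 genes (1328 had an unadjusted p under 0.05, and DESeq2 called 491). With the replicate number as a block, which takes the gap between replicate 1 and the others out of the error, Piezo2 rose by 0.65 (SE 0.09, adjusted p = 0.00267), as 1 of 8 members called against 11% of all genes. Over replicates 2 and 3 alone, a choice made after the data were seen, the log2 fold change was 0.79 (adjusted p = 0.00395).

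The difference in Piezo2 was divided over both days. The planned test gave log2 fold changes of 0.38 (SE 0.26) for E13.5 against E12.5 and 0.31 (SE 0.26) for E14.5 against E13.5, and called 0% of genes in either. With the block these were 0.35 (SE 0.09, adjusted p = 1) and 0.30 (SE 0.09, adjusted p = 0.0764), the second beside 6.01% of all genes called. Both days' differences share the E13.5 libraries.

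None of the other 7 members passed the test between stages, with the block or without it. Trpc1 came nearest. It had 5.97, 8.76 and 6.21 CPM at E12.5, 5.11, 7.56 and 8.36 CPM at E13.5 and 8.86, 10.4 and 10.04 CPM at E14.5. E14.5 did not overlap E12.5, and the log2 fold change with the block was 0.50 (SE 0.17, adjusted p = 0.0793). Piezo1 had 159, 139 and 132 CPM at E12.5, 141, 144 and 149.8 CPM at E13.5 and 153, 167 and 161 CPM at E14.5. Its log2 fold change for E14.5 against E12.5 was 0.16 (SE 0.13).

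Trpm7 showed the replicate structure most strongly: replicate 1 had 139, 132 and 128 CPM at the 3 stages, while replicates 2 and 3 lay at 250.4 to 322 CPM. Replicate 1 thus stood at 0.414 to 0.490 of the mean of the others at each stage. For E14.5 against E12.5 the log2 fold change was 0.04 (SE 0.46) without the block and 0.02 (SE 0.08) with it. Kcnk2 went the other way, at 1.61 to 2.28 times the mean of replicates 2 and 3 in replicate 1, with 27.5, 16.2 and 7.97 CPM at E12.5 and 22.4, 12.3 and 14.0 CPM at E14.5. Pkd1 (74.8 to 102 CPM at E12.5, 86.6 to 94.3 at E13.5, 76.6 to 111 at E14.5) and Pkd2 (119 to 144 CPM at E12.5, 116 to 157 at E13.5, 108 to 148 at E14.5) overlapped across stages, with log2 fold changes of 0.07 and -0.04 for E14.5 against E12.5. Trpv4 was counted rarely in fresh lungs, 25 times over the 3 libraries of E12.5, 25 times at E13.5 and 38 times at E14.5.

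Other cell types also moved with stage. Heart and striated muscle markers summed to 244 to 1101 CPM at E14.5, against 3.96 to 27.2 CPM at E12.5, and endothelial markers to 649 to 854 CPM at E14.5, against 399.8 to 608 CPM at E12.5. Smooth muscle markers summed to 509.6 to 823 CPM at E14.5, against 257 to 425 CPM at E12.5, and mesothelial markers to 192 to 257 CPM at E14.5, against 142 to 164 CPM at E12.5. Lower at E14.5 were the 3 red cell markers, at 44.3 to 114 CPM against 123 to 291 CPM at E12.5. Neuron and glia markers were at 21.2 to 25.1 CPM at E14.5, against 26.3 to 43.5 CPM at E12.5. Their part in the course of Piezo2 was not tested.

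The Piezo2 estimates had opposite signs for pressure in culture and for stage in the embryo, though the planned stage test did not call it. Whether the Piezo2 effects of pressure and stage were unequal was tested directly. Such a test does not by itself show opposite directions. In a fit of all 15 libraries the pressure effect minus the E14.5 against E12.5 effect was -2.06 (SE 0.32, adjusted p = 0.0189). Piezo2 was the 1 member called, against 0.723% of 14940 genes. The call was lost without E12.5 replicate 2 (-2.12, adjusted p = 0.0631) and without high pressure replicate 2 (-2.07, adjusted p = 0.0595). With the block, where 19.3% of genes were called, 3 members were: Piezo2 (-2.02, adjusted p = 2.58e-05), Trpc1 (-0.78, SE 0.22, adjusted p = 0.0293) and Trpm7 (-0.51, SE 0.14, adjusted p = 0.0244). For the other 5 members the difference did not pass the test in either fit, from -0.56 for Pkd2 to 0.62 for Trpv4 in the fit without the block.

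Lungs after 48 h at low pressure were also set against the E12.5 lungs from which such cultures start. 5 members were higher in the cultured lungs, against 32.5% of all genes called, 17.6% higher and 14.9% lower. Culture, sample table and library making cannot be told apart in this comparison, and it shares the low pressure libraries with the pressure comparison and the E12.5 libraries with the stage comparison. Trpv4 had 1.37, 0.885 and 2.59 CPM in low pressure cultures, against 0.819, 0.181 and 0.2 CPM at E12.5 (log2 fold change 2.0, SE 0.61, adjusted p = 0.0232). That call rested on 25 counts at E12.5 and was lost without E12.5 replicate 2 (1.65), without E12.5 replicate 3 (1.70) and without low pressure replicate 3 (1.48), and it was 3.03 without E12.5 replicate 1. Trpc1 had 16.4 to 17.9 CPM in low pressure cultures and 5.97 to 8.76 CPM at E12.5 (1.29, SE 0.21, adjusted p = 0.000553). Piezo2 differed by 0.84 (SE 0.23, adjusted p = 0.0118), Pkd1 by 0.97 (SE 0.15, adjusted p = 0.000335) and Piezo1 by 0.60 (SE 0.13, adjusted p = 0.00285). The groups of Piezo2, Pkd1 and Piezo1 did not overlap, a property that was not counted over all genes.

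The calls of the 5 members higher in the cultured lungs did not hold equally well. With GC and length offsets, where 36.7% of all genes were called, Trpc1 (1.38), Trpv4 (1.63) and Piezo2 (0.39, adjusted p = 0.044) were still called, while Pkd1 went to 0.11 (adjusted p = 0.377) and Piezo1 turned to -0.06 (adjusted p = 0.773). Pkd1 and Piezo1, which lost the call, and Trpv4, which kept it, are the 3 members of highest GC content. The part of GC content in these calls was not tested. Kcnk2 (0.62, adjusted p = 0.202), Pkd2 (0.33, adjusted p = 0.253) and Trpm7 (-0.52, adjusted p = 0.33) did not pass. With the block, where 56.1% of all genes were called, Kcnk2 (0.72, adjusted p = 0.0186) and Trpm7 (-0.44, adjusted p = 0.00216) did, giving 7 of 8 members.

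Levels of different genes were compared per kb of exon. At E12.5 Trpm7 was the highest at 20.7 ± 7.89 CPM per kb, above Piezo1 at 14.4 ± 1.45 and Pkd2 at 13.2 ± 1.35, and these 3 did not differ beyond their spread. Pkd1 (5.05 ± 0.775), Piezo2 (3.90 ± 0.469) and Kcnk2 (3.48 ± 1.98) followed, then Trpc1 (0.869 ± 0.192) and Trpv4 (0.0981 ± 0.0890; SD, n = 3). At high pressure Piezo1 led with 24.1 ± 2.18 CPM per kb, followed by Pkd2 (10.9 ± 0.677) and Trpm7 (10.3 ± 0.0147), Pkd1 (8.84 ± 0.875), Kcnk2 (5.50 ± 0.544), Piezo2 (2.68 ± 0.138), Trpc1 (1.75 ± 0.0916) and Trpv4 (1.0 ± 0.229). At low pressure Piezo1 (22.0 ± 2.63), Pkd2 (16.7 ± 5.31) and Trpm7 (14.6 ± 1.99) led, and Piezo2 at 7.04 ± 0.882 stood above Kcnk2 at 5.37 ± 0.755. Piezo2 and Kcnk2 were thus in opposite order at the 2 pressures, by more than their SDs in each. With the longest transcript in place of the exon union, Pkd2 came above Piezo1 at E12.5 (25.7 ± 2.63 and 17.4 ± 1.75 CPM per kb) and, within their spread, at low pressure (32.5 ± 10.3 and 26.6 ± 3.18). By that length Piezo2 (6.24 ± 0.751) and Pkd1 (6.21 ± 0.953) also changed places at E12.5.

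Over all 15 libraries the 3 profiles most like that of Piezo2 were those of Rps6ka2, Dach2 and Has2, at root mean square log2 differences of 0.22, 0.23 and 0.23 among 10745 genes, where Piezo2 itself varied by an SD of 0.56. Trpm7 had the closest matches, Akap11, Fbxo30 and Zbtb33 at 0.08, 0.08 and 0.09 beside its own SD of 0.62, and their exon GC content of 41.9%, 38.2% and 39.2% was as low as that of Trpm7. Piezo1 was most like Adipor1, Sidt2 and Gse1 (0.10 each), Pkd1 like Thsd4, Phf1 and Mef2d (0.11 to 0.12), and Pkd2 like Clasp1, Dhx57 and Ints7 (0.10 to 0.11). Trpc1 was nearest to Hivep2, Nfia and Zdhhc9 (0.17 to 0.19), Kcnk2 to Anxa6, Itgb5 and Usp30 (0.14 to 0.20), and Trpv4 to Col11a2, Ltbp3 and Ptgs1 (0.28 to 0.30). Exon GC content of the matches was 39.1% to 54.3% for Piezo2, 51.0% to 62.9% for Trpv4 and 42.7% to 49.0% for Trpc1. It was 53.6% to 57.1% for Piezo1, 52.4% to 58.6% for Pkd1, 48.9% to 50.5% for Pkd2 and 54.0% to 57.0% for Kcnk2. The part of GC content in these profiles was not tested.

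Among 23 other channels held to be gated by force or stretch, 18 were tested for high against low pressure, and 4 rose and 3 fell. The counts of this list and of the 4 described after it stand against 26.1% of all genes called, 14% higher and 12.2% lower, and nothing particular to the lists is read from them. The 4 that rose were the epithelial sodium channel subunits Scnn1g (28.7 ± 1.47 CPM at high and 8.97 ± 0.971 at low pressure, log2 fold change 1.68, adjusted p = 0.000393) and Scnn1b (1.54, adjusted p = 0.0146), and the osmosensitive channels Tmem63a (33.3 ± 1.24 and 16.0 ± 1.49 CPM, 1.06, adjusted p = 0.00106) and Tmem63b (0.38). Those that fell included Trpc6 (-1.19) and the calcium-activated potassium channel Kcnma1 (-1.15). Tmem63b, Trpc6 and Kcnma1 were named after their values were seen. The list median was -0.09, against 0.01 over all genes.

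Of 29 further TRP and K2P channels 17 were tested, 4 rose and 1 fell (26.1% of all genes were called), at a median of 0.16. Trpm6, the sister gene of Trpm7 and likewise a magnesium channel with a kinase, had 3.58 ± 0.840 CPM at high and 0.565 ± 0.266 CPM at low pressure (2.66, adjusted p = 0.00408), while Trpm7 fell. Kcnk1 (43.3 ± 0.453 and 25.5 ± 1.41 CPM, 0.76, adjusted p = 0.0019), the calcium channel Trpv6 (0.97, adjusted p = 0.0196) and Kcnk13 (1.82, named after its values were seen) also rose, and Trpm5 fell (-0.62, adjusted p = 0.0119). Of the polycystin relatives and primary cilium genes 13 of 16 were tested, 3 rose and 2 fell, at a median of -0.09. Ift20, an intraflagellar transport subunit (0.72, adjusted p = 0.00633), Ganab, a glucosidase needed for polycystin maturation (0.35, adjusted p = 0.0229), and Pkhd1 (0.58, named after its values were seen) rose, and Pkhd1l1 (-1.42, adjusted p = 0.0138) and the BBSome subunit Bbs4 (-0.57, adjusted p = 0.0167) fell.

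Of the regulators of Piezo, TRP and store-operated channels 15 of 16 were tested, 5 rose and 1 fell (14% and 12.2% of all genes), at a median of 0.17. The inositol trisphosphate receptor Itpr3 (122 ± 9.75 CPM at high and 81.2 ± 2.5 CPM at low pressure, 0.59, adjusted p = 0.00325), the store sensor Stim1 (0.52, adjusted p = 0.00802), the Trpv4-binding protein Pacsin3 (0.81, adjusted p = 0.0106) and Mdfi (0.64, adjusted p = 0.0108), whose protein family binds Piezo channels, rose. The calcium pump Atp2a2 (0.37) also rose and Itpr2 (-0.73) fell, both named after their values were seen. Of 16 calcineurin, NFAT and flow-responsive genes, all tested, 3 rose and 4 fell, at a median of -0.22. The calcineurin subunits Ppp3cb (-0.48, adjusted p = 0.0047) and Ppp3r1 (-0.43, adjusted p = 0.0209) and the transcription factors Nfatc2 (-0.87, adjusted p = 0.0225) and Nfatc1 (-0.59) fell, whereas the calcineurin inhibitor Rcan2 (0.91, adjusted p = 0.00705), Rcan3 (0.30) and Camk2g (0.33) rose. Nfatc1, Rcan3 and Camk2g were named after their values were seen. Of the 20 genes the rule takes from these lists, 16 were still called with the GC and length offsets, 9 with all 15 libraries in one fit, and 9 whichever library was left out. The other 11 (among them Scnn1b, Trpm5, Trpv6, Pkhd1l1, Bbs4, Ganab, Pacsin3, Mdfi, Ppp3r1 and Nfatc2) lost the call without 1 or more of the high pressure libraries, and Trpv6, Ganab and Ppp3r1 also without low pressure replicate 1 or 2.

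**Figure D5:**
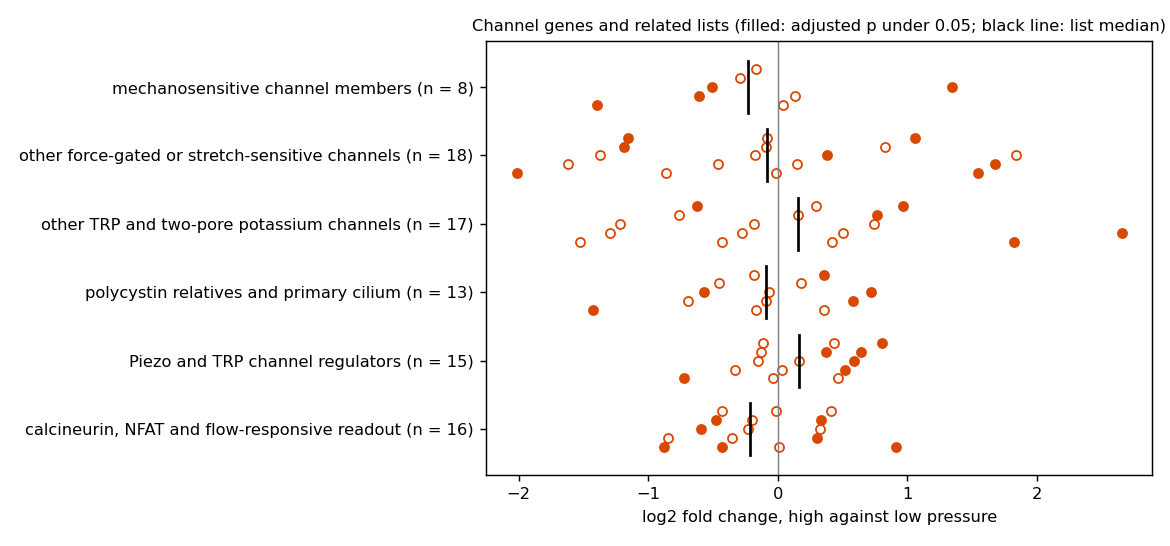
Log2 fold change between high and low pressure of the 8 channel genes and of the tested genes of 5 related lists; filled points have an adjusted p under 0.05 and black lines mark list medians. The medians lay between -0.23 (the 8 channel genes) and 0.17 (regulators), with points on both sides of 0 in every list.

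Between E14.5 and E12.5, the fit with the block called 9 genes of the same lists, while it called 11% of all genes. Camk2d (0.74, adjusted p = 0.0136), Nfatc1 (0.84, adjusted p = 0.0212), Itpr2 (0.68, adjusted p = 0.0251), Stom (0.70, adjusted p = 0.0361), Scnn1b (1.71, adjusted p = 0.0389) and Kcnk1 (0.51, adjusted p = 0.0448) rose, and Mcoln3 (-1.77, adjusted p = 0.00431), Asic2 (-2.11, adjusted p = 0.0209) and Nfatc4 (-0.31, adjusted p = 0.0336) fell. In counts this was 1 up and 1 down of 15 force-gated channels, 1 up and 1 down of 15 TRP and K2P channels, 0 of 12 cilium genes, 2 up of 14 regulators and 2 up and 1 down of 16 calcineurin, NFAT and flow-responsive genes. Their medians were 0.04, 0.18, -0.02, 0.21 and 0.07, against -0.0034 over all genes.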

How the data were processed

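RNA from pooled whole lungs was sequenced in 15 libraries, and raw counts of reads for 23420 genes, deposited by the authors in separate tables for cultured and fresh lungs, were the input. Per the submitters' processing notes, reads went through cutadapt 1.6, Bowtie 1.1.1 and TopHat, HTSeq and DESeq2, on genome build mm10; the annotation, strand setting and filters behind the counts were not stated there (not given in the sources used here). Of 8 deposited tables the 2 of raw counts were used, and 0 columns of samples were left out. The 8 members and the gene lists were chosen with earlier results of these data known.

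Each table was fitted in edgeR 4.0.16 (R 4.3.3): TMM scaling, filterByExpr by group, robust quasi-likelihood F-test, Benjamini-Hochberg adjustment over all genes tested, threshold 0.05. Comparisons across tables used 1 fit of all 15 libraries. SE is the log2 fold change divided by the square root of F. All 8 members passed filterByExpr in both tables and in the joint fit; in fresh lungs Trpv4 did not reach a mean of 1 CPM, nor pass filterByExpr with replicates 2 and 3 alone. The tests were checked on simulated counts.

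Alternatives were DESeq2 1.42.0 (Wald test, size factors), upper quartile scaling, no filter or a mean of at least 1 CPM, each library left out, a replicate block, a replicate 1 term, and offsets from smooth trends on GC content and length (mgcv 1.9.3; GENCODE M21 on GRCm38, matching 98.4% of genes). In fresh lungs all 9 same-numbered pairs of libraries shared deviations from their group means (r 0.397 to 0.838). The 18 other pairs ran from -0.736 to 0.625, which overlaps that range. Replicate 1 stood apart at every stage, so these values do not show that the numbers pair replicates 2 and 3. The numbers were still used as a block. In cultured lungs same-numbered pairs did not share deviations (r -0.012 to 0.046). The meaning of the numbers is not in the labels. No libraries of a group agreed within sampling noise.

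Genes named from the lists were up to 4 per list and comparison with the smallest p among those called; for the stages this was applied to the fit with the block, since the planned fit called none. Profiles were compared on log2(CPM + 0.5), centred on each gene, among genes averaging 5 CPM or more. Of the lists, Pkd1l1, and of the markers, Hbb-bt, Epb42 and Adgre1 were not used here. 1 gene that the rule takes is not reported here.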

Additional observations from a re-analysis of the deposited data

How the results depend on the processing

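Scaling, the tool and the count filter (DESeq2 size factors, upper quartile scaling, the DESeq2 Wald test, no filter, a mean of at least 1 CPM) left the number of members called as reported in all 6 comparisons. For high against low pressure, 4 members became 1 with the GC and length offsets, 1 with these and the replicate block, 1 with all 15 libraries in one fit, and 1 to 4 when a library was left out. For E14.5 against E12.5, 0 became 1 with the replicate block (0.65 for Piezo2), the block with offsets, the replicate 1 term or replicates 2 and 3 alone, and 0 when any library was left out. For E14.5 against E13.5, 0 became 1 with the block and offsets (Piezo2, 0.27). For low pressure culture against E12.5, 5 became 3 with the offsets, 7 with the block, 7 with the replicate 1 term or with replicates 2 and 3 alone, and 4 to 6 when a library was left out. For the pressure effect minus the stage effect, 1 became 3 with the block or the replicate 1 term, and 0 to 1 when a library was left out. The causes were not tested.

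Values that turned sign belonged to members not called in the planned fit, except that of Piezo1 in low pressure culture against E12.5 (-0.057 with the offsets). They were, with the offsets and with block and offsets, Kcnk2 for high against low pressure (-0.035 and -0.028), and Trpm7 (-0.081 and -0.083) and Pkd1 (-0.015 and -0.015) for E14.5 against E12.5. With replicates 2 and 3 alone they were Pkd2 (0.0034) and Kcnk2 (0.12) for E14.5 against E12.5, and Trpv4 (-0.37) and Kcnk2 (-0.075) for the difference of effects. With a library left out, the ranges were -0.030 to 0.16 for Kcnk2 under pressure; -0.22 to 0.35 for Trpm7, -0.11 to 0.19 for Pkd1, -0.16 to 0.086 for Pkd2 and -0.43 to 0.43 for Kcnk2 between E14.5 and E12.5; and -0.12 to 0.030 for Piezo1, -0.41 to 1.14 for Trpv4 and -0.36 to 0.46 for Kcnk2 for the difference. Trpv4, with 25 to 38 counts per stage, is limited by depth in fresh lungs.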
